A study of Mus musculus with 4 samples.

Results

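Chromatin accessibility was described at the loci of 7 chemokine receptor genes, Cxcr4, Ccr7, Cxcr3, Cx3cr1, Cxcr6, Ccr2 and Ccr1, in natural killer (NK) cells of the mouse. The genes were chosen by name, out of 21755 protein-coding genes of the autosomes and X. The choice used no rule on a measured value, but earlier results of these data were known. A locus was the annotated gene body with 25 kb on either side. The 7 loci did not overlap one another and held 73 of the 78144 regions at which any library had a peak. NK cells were profiled in 4 DNase-seq libraries, which formed a single group, so no treatment, genotype or tissue was compared. All 4 came from primary cells of female B6CASTF1/J mice aged 2 months, the first-generation offspring of C57BL/6J and CAST parents. In the labels every library has a separate biosample but all share a donor identifier, and they state neither the organ nor the gate from which the cells were taken. The spread between libraries may therefore be partly technical.

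Chemokine receptors are G protein-coupled receptors that turn a gradient of a chemokine into directed movement of the cell. In NK cells they set whether the cell stays in the bone marrow, circulates, enters lymph nodes or moves into inflamed tissue, and the set of receptors carried changes as the cells mature. DNase-seq maps the positions cut by the nuclease DNase I, so that dense cutting marks DNA open to regulatory proteins, and a footprint is a short stretch inside open DNA that is protected from cutting. Open DNA at a gene is not a measure of its RNA, which was not measured here.

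Each peak carries a signal value of the authors' own, whose scale is not stated, and a region without a peak in a library was given a signal of 0. A region was called recurrent where at least 3 of 4 libraries had a peak. Promoter regions had a base no farther than 1 kb from the annotated 5' end of some protein-coding gene, and the other regions were called distal. With 4 libraries in 1 group, the smallest p that a sign-flip test can give is 0.125, so levels are described by library, mean and SD and were not tested.

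The libraries held between 36247 peaks in replicate 4 and 69144 in replicate 3. Replicate 3 stood apart from the rest, having the highest signal at 77.2% of all regions with a peak in every library, against 16.1% for replicate 2. Of 12 NK cell marker genes, 7 had a recurrent promoter region, a share not far from the 50.3% of all protein-coding genes. Those not recurrent, Klrb1c, Klrd1, Klrk1, Tbx21 and Gzma, each had a peak in replicate 3, and Klrb1c and Gzma there alone. The summed signal of the 12 promoters was 23.1, 25.2, 65.3 and 21.4 in replicates 1 to 4. A promoter peak was found in no library at 43.4% of all protein-coding genes, and in at least 3 libraries at 50.3%. Of 10 T cell markers, Lat and Cd3g were recurrent and 6 had no promoter peak in any library, Cd3d and Cd3e among them, and the summed signal ran between 2.28 and 3.46. Of 10 markers of monocytes, macrophages and neutrophils 9 had none and 1 was recurrent, and the summed signal ran between 0.644 and 2.14. Of 10 B cell markers 5 were recurrent, Pax5 and Ebf1 among them, which is near the share of all genes, and 2 had no peak in any library. The summed B cell signal was 5.43, 10.5, 2.93 and 8.38 in replicates 1 to 4, highest in replicate 2 and lowest in replicate 3.

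The DNA of 8 recurrent regions is printed because these carry the results that follow. They are the promoter regions of Cxcr4, Ccr7 and Cxcr3, the most accessible distal regions nearest to Cxcr4, Ccr7 and Cxcr3, and the 2 recurrent regions nearest to the start of Cx3cr1. Each is the reference sequence of GRCm38.p6, the assembly also called mm10, read 5′ to 3′ along the minus strand, on which all 4 of these genes lie. Capitals mark bases inside a footprint of the authors in at least 2 of 4 libraries.
Cxcr4 promoter, chr1:128592300-128592480: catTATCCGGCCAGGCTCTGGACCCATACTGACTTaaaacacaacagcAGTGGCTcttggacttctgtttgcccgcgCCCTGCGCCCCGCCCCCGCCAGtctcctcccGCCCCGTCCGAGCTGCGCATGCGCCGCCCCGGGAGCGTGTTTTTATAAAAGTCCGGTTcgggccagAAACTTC
Cxcr4 22.8 kb upstream, chr1:128614931-128615170: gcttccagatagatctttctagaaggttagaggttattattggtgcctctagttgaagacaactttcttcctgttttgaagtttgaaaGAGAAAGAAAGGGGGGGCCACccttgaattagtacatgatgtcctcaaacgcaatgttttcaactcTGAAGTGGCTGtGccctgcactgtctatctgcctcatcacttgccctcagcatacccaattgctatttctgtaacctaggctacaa
Ccr7 promoter, chr11:99155078-99155317: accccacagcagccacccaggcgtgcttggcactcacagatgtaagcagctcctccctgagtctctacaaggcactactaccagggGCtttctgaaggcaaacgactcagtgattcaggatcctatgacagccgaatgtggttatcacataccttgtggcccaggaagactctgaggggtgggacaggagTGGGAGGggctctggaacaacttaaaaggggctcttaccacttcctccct
Ccr7 intron, chr11:99150021-99150240: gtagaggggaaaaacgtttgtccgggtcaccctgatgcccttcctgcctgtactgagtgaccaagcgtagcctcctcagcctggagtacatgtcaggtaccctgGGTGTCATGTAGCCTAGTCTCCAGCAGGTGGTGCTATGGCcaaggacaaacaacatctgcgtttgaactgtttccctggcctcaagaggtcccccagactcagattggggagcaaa
Cxcr3 first intron, chrX:101733881-101734046: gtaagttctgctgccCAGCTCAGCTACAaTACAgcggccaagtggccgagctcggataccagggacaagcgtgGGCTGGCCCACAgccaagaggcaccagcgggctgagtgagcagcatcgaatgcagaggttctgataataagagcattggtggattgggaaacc
Cxcr3 3.2 kb upstream, chrX:101737322-101737561: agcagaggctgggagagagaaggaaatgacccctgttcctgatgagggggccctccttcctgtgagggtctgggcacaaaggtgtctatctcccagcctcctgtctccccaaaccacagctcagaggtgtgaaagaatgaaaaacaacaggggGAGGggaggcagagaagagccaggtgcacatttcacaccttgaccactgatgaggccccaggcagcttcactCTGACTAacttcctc
Cx3cr1 3.5 kb upstream, chr9:120073241-120073460: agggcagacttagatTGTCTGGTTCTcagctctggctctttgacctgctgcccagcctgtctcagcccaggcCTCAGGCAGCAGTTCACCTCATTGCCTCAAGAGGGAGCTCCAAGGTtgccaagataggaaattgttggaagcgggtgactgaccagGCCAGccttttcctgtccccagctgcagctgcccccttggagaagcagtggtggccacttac
Cx3cr1 intron, chr9:120055001-120055240: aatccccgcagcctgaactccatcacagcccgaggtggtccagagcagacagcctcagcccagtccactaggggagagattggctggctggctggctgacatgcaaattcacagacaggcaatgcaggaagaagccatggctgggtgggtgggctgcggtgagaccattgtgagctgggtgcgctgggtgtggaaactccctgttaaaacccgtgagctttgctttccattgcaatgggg
In the Cxcr4 promoter 126 of 181 bases stood in capitals, more than in any other of these sequences. The Cx3cr1 intron had none, since the stretches called in its single libraries did not coincide.

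Of the 7 receptor genes, Cxcr4, Ccr7 and Cxcr3 had a recurrent region at the promoter, which is 3 of 7, against 50.3% of all protein-coding genes. When every annotated transcript start was examined the count stayed at 3 of 7, against 54.7% of all genes. Cx3cr1, Cxcr6 and Ccr1 had no peak within 1 kb of the 5' end of the gene in any library, and Ccr2 had one in replicate 1 alone. The members' share lay near that of all genes, while the levels within the group were far apart. The mean promoter signal was 10.8 ± 1.51 at Cxcr4, 1.82 ± 0.474 at Ccr7 and 1.81 ± 0.423 at Cxcr3 (SD, n = 4 libraries). In bulk libraries, fewer cells with an open site and less cutting per cell cannot be told apart. Every library of Cxcr4 stood above every library of Ccr7 and Cxcr3, whereas Ccr7 and Cxcr3 overlapped and did not differ beyond their spread.

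**Figure D1:**
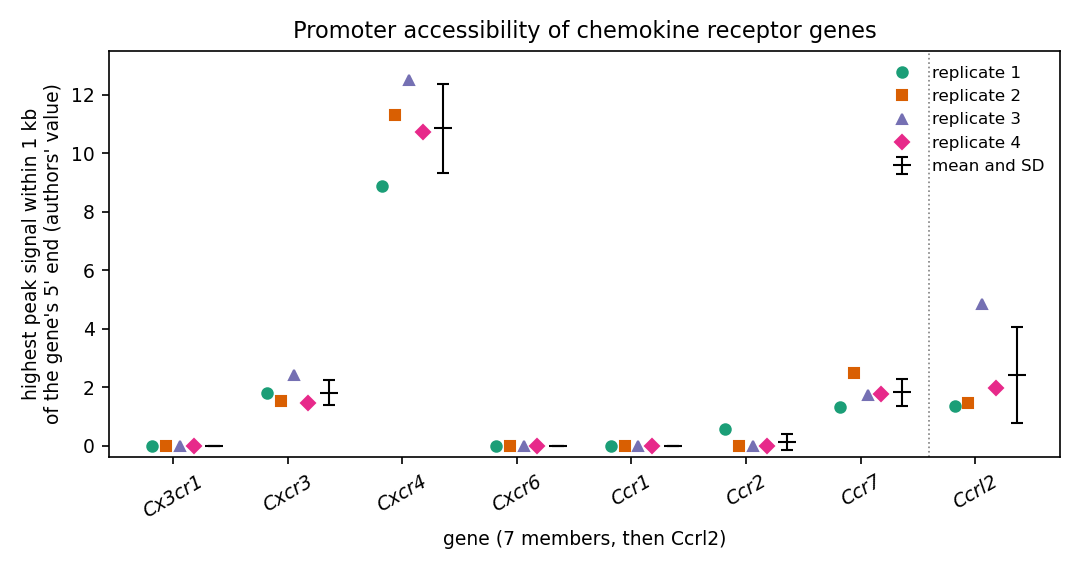
Highest peak signal within 1 kb of the 5' end (the authors' value, vertical axis) of the 7 members and, right of the dotted line, of Ccrl2, another chemokine receptor gene; symbols are libraries, and the dash and bar give the mean and SD. Cxcr4 lies between 8.88 and 12.5 in all 4 libraries, and no library of another gene shown exceeds the 4.86 of Ccrl2 in replicate 3.

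Cxcr4 encodes the receptor of Cxcl12, the chemokine that holds haematopoietic cells and developing NK cells in the bone marrow. Its promoter region (chr1:128592201-128592480), just upstream of the start, had a signal of 8.88, 11.3, 12.5 and 10.7 in replicates 1 to 4. Replicate 1 was lowest and replicate 3 highest, and the mean stood above that of 90.5% of recurrent promoter regions and, per gene, above 86.8% of the genes with a recurrent promoter. Every one of the 280 bases had a false discovery rate (FDR) of DNase cutting below 0.001 in every library. Without replicate 3 the mean signal was 10.3 ± 1.25.

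The Cxcr4 promoter was also the most densely footprinted of the printed stretches. It held 8, 6, 7 and 6 footprints in replicates 1 to 4, and 108 of the 181 printed bases lay in a footprint of at least 3 libraries and 85 in one of all 4. The letters TATAAA, bound by the TATA-binding protein in many core promoters, stood at positions 152 to 157 of the printed sequence, 36 bases before the annotated start. The overlapping reverse-strand match was at 150 to 155, and every letter of both lay in a footprint of at least 3 libraries. The letters GCGCATGCG, part of the palindrome bound by NRF1, a factor of housekeeping promoters, stood at positions 123 to 131 and, on the other strand, at 124 to 132, again wholly in such footprints. Windows of the same length at the centre of recurrent promoter regions held TATAAA in 2.37% and GCGCATGCG in 2.59%, on either strand. Unlike the printed stretch, those windows were not placed by a gene's start. Both sets of letters were added to the search after the sequence was seen. GGGCGGG, bound by KLF and SP factors, had 2 matches on the reverse strand, at 86 to 92 and 106 to 112, and 34.6% of such windows hold it. Its first match lay wholly in a footprint of at least 3 libraries and its second for 3 of its letters. The ratio of observed to expected CpG within 500 bp of the start was 0.625 at Cxcr4, above that of 56.3% of genes, and ran between 0.0638 at Ccr1 and 0.244 at Cxcr3 in the other 6 genes.

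Around Cxcr4 lay 8 recurrent regions, all with a peak in all 4 libraries and all nearest to Cxcr4 among protein-coding starts. The strongest distal one lay 22.8 kb upstream in intergenic DNA (chr1:128614781-128615320), with a signal of 2.81, 2.95, 6.79 and 2.91 in replicates 1 to 4. Replicates 1, 2 and 4 lay close together and replicate 3 far above them, and the mean of 3.87 ± 1.95 exceeded that of 92.3% of recurrent distal regions. It held 5, 8, 7 and 5 footprints. In the printed stretch, AGNNGGNGC, a short core of the motif of the architectural protein CTCF that was added after the sequences were seen, stood at positions 98 to 106 inside a footprint of at least 3 libraries. That core is common, being held by 30% of distal windows of this length.

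Inside the intron of Cxcr4, a region of 820 bp (chr1:128590801-128591620) had a signal of 1.61, 2.84, 2.82 and 2.84 in replicates 1 to 4. Replicate 1 was low and the other 3 were nearly equal. Its footprints numbered 0, 0, 4 and 10, so that replicates 1 and 2 had none although every base was listed with an FDR below 0.05 in all 4 libraries. The other 5 recurrent regions of the locus had mean signals between 0.619 and 1.20.

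**Figure D2:**
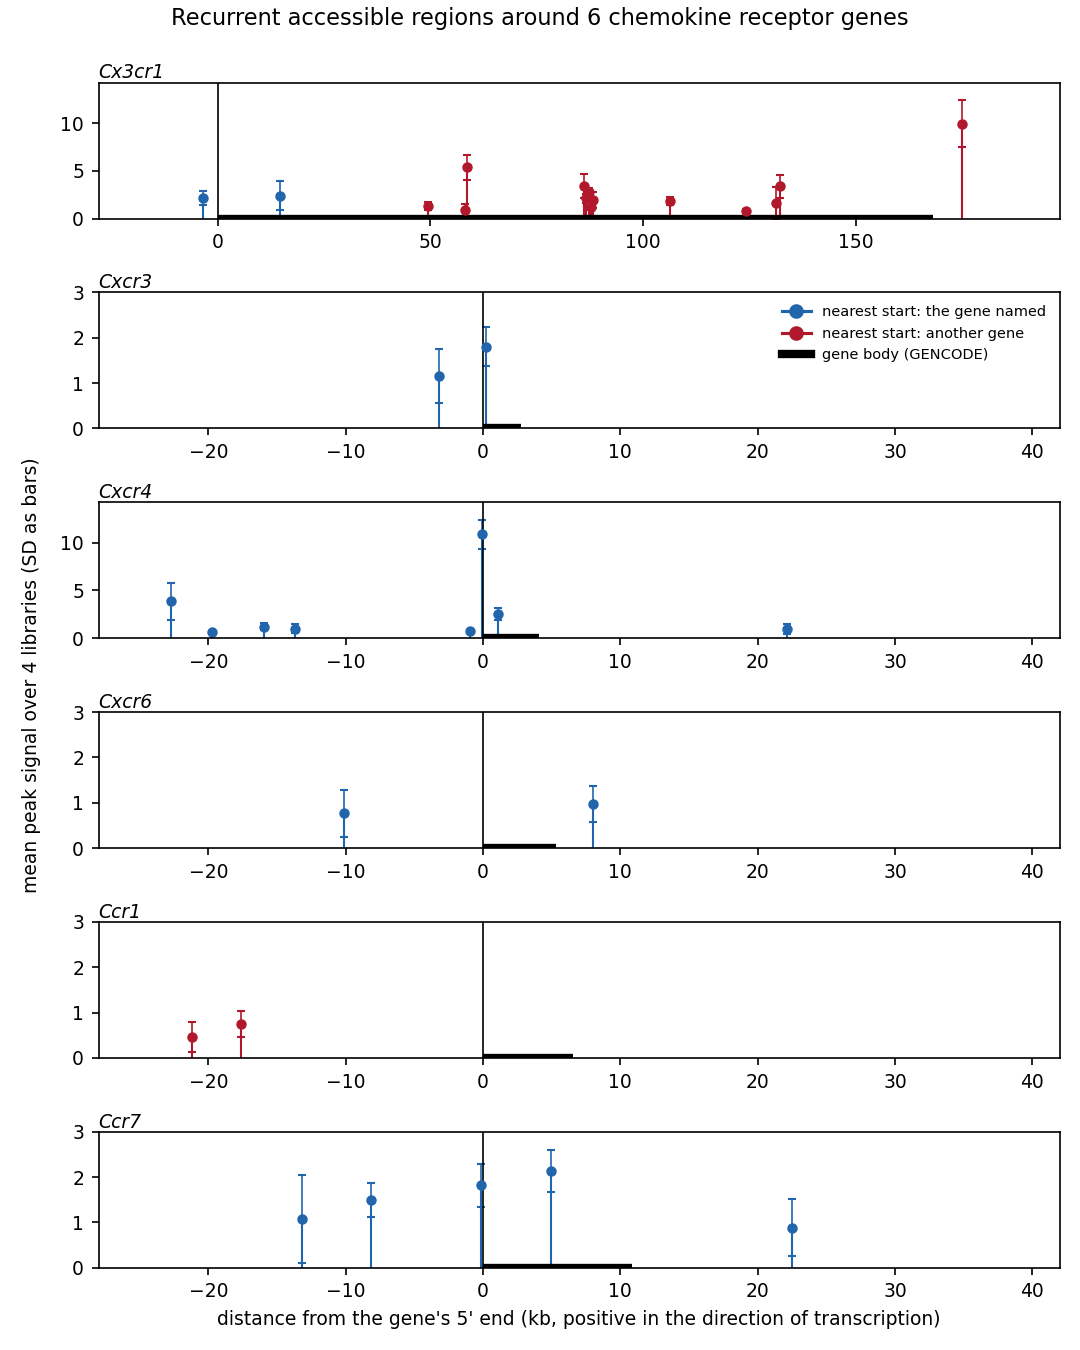
Mean peak signal (vertical axis, authors' value, bars SD over 4 libraries) of the recurrent regions against distance from the 5' end of each gene (kb, positive in the direction of transcription), 1 panel for each of 6 genes; the thick line is the GENCODE gene body. All regions of the Cxcr4, Ccr7, Cxcr3 and Cxcr6 panels are nearest to the gene named, both regions of the Ccr1 panel to a neighbour, and the Cx3cr1 panel has 2 of its own.

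Ccr7 binds Ccl19 and Ccl21 and leads lymphocytes and dendritic cells into lymph nodes. Its promoter region (chr11:99154981-99155520) had a signal of 1.33, 2.47, 1.74 and 1.75 in replicates 1 to 4. Replicate 2 was highest and replicate 1 lowest. The mean stood above that of 21.8% of the genes with a recurrent promoter, so Ccr7 had an open but comparatively weak promoter. In the printed sequence TGANTCA, bound by AP-1, stood at positions 111 to 117, RUNX letters TGTGGT at 137 to 142 and ETS letters GAGGAAG on the reverse strand at 231 to 237. Promoter windows of that length, at the centre of their regions and not placed by a start, held them in 3.43%, 10.1% and 10.7%. Those windows were not matched for CpG, and the CpG ratio at Ccr7, 0.176, was above that of only 19.5% of genes. Distal windows of that length held the RUNX letters in 28.1% and the ETS letters in 13.3%. None of the 3 matches lay in a footprint of at least 2 libraries.

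In the intron of Ccr7, 4.9 kb into the gene (chr11:99150021-99150240), the signal was 1.89, 2.32, 2.70 and 1.66 in replicates 1 to 4. This was the strongest region of the locus, with a mean of 2.14 ± 0.459, and its range overlapped that of the promoter region. A footprint of at least 3 libraries there took in the letters CAGGTG, an E-box, at 129 to 134 and the overlapping AGNNGGNGC at 130 to 138, held by 20.8% and 28.9% of distal windows of this length. A region 8.2 kb upstream (chr11:99163081-99163462) had 1.37, 2.05, 1.31 and 1.23, with replicate 2 again highest.

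Replicate 2 was highest at 2 of the 3 Ccr7 regions with a peak in all 4 libraries, and at 8 of 32 such regions over all 7 loci, where replicate 3 led 22, against 16.1% for replicate 2 and 77.2% for replicate 3 over all regions. No difference in that order was tested. A region 13.2 kb upstream (chr11:99168141-99168380), named after its values were seen, had no peak in replicate 1 and a signal of 2.22, 0.598 and 1.49 in replicates 2, 3 and 4. Replicates 2 and 4 were high there and replicates 1 and 3 low or without a peak. The summed B cell marker signal was also highest in replicates 2 and 4, at 10.5 and 8.38 against 5.43 in replicate 1 and 2.93 in replicate 3. Of the single markers, Cr2, Pax5, Cd79a, Cd79b and Blk were highest in replicates 2 and 4. Ebf1 and Ms4a1 were higher in replicate 1 than in replicate 4, and Cd22 had peaks in replicates 1 and 3 alone. B cells express Ccr7 too. Other Ccr7 regions did not clearly share that order. At the promoter replicate 4, at 1.75, was level with the 1.74 of replicate 3. Replicate 4 was lowest in the intron, at 1.66, and 8.2 kb upstream, at 1.23. The region 22.5 kb downstream of the start was highest in replicate 3, at 1.48. The part of B cells in the Ccr7 signal was not tested.

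Replicate 1 differed from the others in the FDR of the Ccr7 bases. In the promoter region 0, 447, 448 and 526 of 540 bases had an FDR below 0.001 in replicates 1 to 4, and in the intronic region 0, 205, 220 and 195 of 220. None of the 5 recurrent Ccr7 regions had such a base in replicate 1, whereas 4 of 5 had one in each other library and 32 of the 40 regions over all loci had one in replicate 1. The signal of replicate 1 at its 3 Ccr7 peaks was 1.33, 1.89 and 1.37, at the promoter, the intron and 8.2 kb upstream. The promoter value was below those of the other libraries and the other 2 lay among them. None of the 3 had a counterpart in the authors' shorter and stricter peak list, and of all 5245 peaks of replicate 1 with a signal between 1.33 and 1.89, 2.27% had none.

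**Figure D3:**
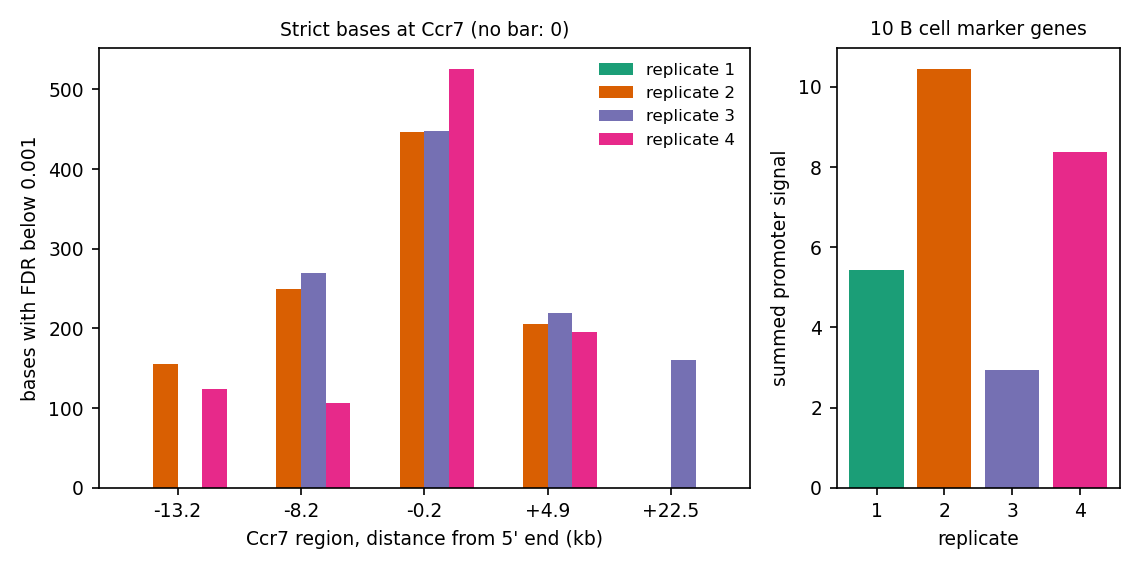
Left, bases with an FDR below 0.001 (vertical axis) in the 5 recurrent Ccr7 regions, ordered by distance from the 5' end (kb) and coloured by library; right, summed promoter signal of 10 B cell marker genes in each library. Replicate 1 has 0 such bases in all 5 regions, and replicates 2 and 4 have the highest B cell sums, 10.5 and 8.38.

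Cxcr3 binds the interferon-induced chemokines Cxcl9 and Cxcl10 and brings NK and T cells to inflamed sites. Its promoter region (chrX:101733881-101734220) spans part of the first exon and the beginning of the first intron, and had a signal of 1.81, 1.54, 2.40 and 1.47 in replicates 1 to 4. Replicate 3 was highest and replicates 2 and 4 were close together. The mean stood above that of 21.6% of genes with a recurrent promoter, and the gene with the most similar promoter signal among 23 other chemokine receptor genes was Ccr7, with a mean absolute difference of 0.44 on the log2(signal + 0.1) scale over 4 libraries. Footprints numbered 4, 0, 6 and 2.

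The second recurrent region near Cxcr3 lay 3.2 kb upstream (chrX:101737181-101737702), with a signal of 0.858, 1.03, 2.03 and 0.702. Replicate 3 was high and the other 3 were within a narrow range. The printed stretch held AGGTGTG, the core bound by T-box factors such as T-bet and Eomes, on the forward strand at positions 125 to 131 and on the reverse strand at 187 to 193. It was the only printed sequence with these letters, which 6.82% of distal windows of this length hold at least once. The RUNX letters TGTGGT stood on the reverse strand at 113 to 118, and 28.1% of windows hold them. Further matches were the ETS letters GAGGAAG on the reverse strand at 234 to 240 and the E-box CAGGTG at 174 to 179. AGGGGGC, searched for CTCF, stood at 45 to 51. Windows of this length hold these 3 sets in 13.3%, 22.2% and 13.2%. None of these matches lay in a footprint of at least 2 libraries, where 11 of the 240 printed bases did.

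Cx3cr1 is the receptor of the membrane-bound chemokine fractalkine and in the mouse marks mature, circulating NK cells. Over the 3 GENCODE starts of the gene, a peak was found only in replicate 3 and only at the 2 inner starts, 1 of which is the RefSeq start. That peak (chr9:120068181-120068460) had a signal of 0.980, and 340 bases within 1 kb of the start had an FDR below 0.05 in replicate 3 and 0 in replicates 1, 2 and 4. Of those 340 bases, 268 had an FDR below 0.001 and 1 footprint was called among them. At the outermost start no base was listed in any library.

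Open DNA near Cx3cr1 was found away from its starts. A region 14.8 kb into the gene (chr9:120054921-120055320), in an intron, had a signal of 1.42, 1.12, 4.51 and 2.59 in replicates 1 to 4. Replicate 3 was highest, replicate 4 came next, and the mean of 2.41 ± 1.54 exceeded that of 82.3% of recurrent distal regions. An intergenic region 3.5 kb upstream of the 5' end (chr9:120073241-120073460) had 2.28, 2.85, 2.34 and 1.10. There replicate 4 was low and replicate 3 did not lead.

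These 2 regions were the only recurrent ones whose nearest protein-coding start was that of Cx3cr1, and were named for that after their values were seen. Upstream, AGNNGGNGC stood at positions 102 to 110 wholly inside a footprint of at least 3 libraries, and 28.9% of distal windows of this length hold it. The intronic stretch held GGANTTTCC, bound by NF-kB, on the reverse strand at 192 to 200, letters found in 1.33% of distal windows of this length, and GGGTGTG, bound by KLF factors, at 186 to 192, found in 8.57%. Neither lay in a footprint of at least 2 libraries.

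The other recurrent regions of the Cx3cr1 locus had the start of another gene as their nearest, though most lie inside a GENCODE intron of Cx3cr1, and which gene they act on was not tested. GENCODE gives the gene a body of 168264 bp because 1 transcript has a remote last exon, while the RefSeq body is 19614 bp, so the number of recurrent distal regions was 11 with the first and 2 with the second. The strongest regions of the GENCODE locus were the promoter of Wdr48, a region nearest to Xirp1 and the promoter of Ttc21a. At the Wdr48 promoter (chr9:119894761-119894980) the signal was 8.05, 10.6, 13.2 and 7.97. The region near Xirp1 (chr9:120011201-120011400), 12.3 kb from that start, had 3.63, 6.71, 6.06 and 5.15 and a mean above that of 95.8% of recurrent distal regions. The Ttc21a promoter averaged 3.40 ± 1.22, level with a promoter region of Csrnp1 at 3.40 ± 1.24.

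Cxcr6 binds Cxcl16 and marks NK cells and related lymphocytes that stay in the liver. It had no peak at either GENCODE start, and 0 bases within 1 kb of those starts were listed with an FDR below 0.05 in any library. Both recurrent regions of its locus lay in introns of Fyco1, a gene whose annotated body extends on either side of Cxcr6. The one 8.0 kb downstream of the Cxcr6 start (chr9:123814201-123814700) had a signal of 0.764, 0.886, 1.57 and 0.682, and the one 10.1 kb upstream (chr9:123796241-123796480) had 0.928, 1.11 and 1.05 in replicates 1 to 3 and no peak in replicate 4. Replicate 3 led the downstream region but not the upstream one, and neither mean, 0.976 ± 0.405 and 0.771 ± 0.519, exceeded that of most distal regions.

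Ccr2 binds Ccl2 and draws monocytes from the bone marrow into inflamed tissue. The only peak within 1 kb of its 5' end (chr9:124101085-124101158) was in replicate 1, with a signal of 0.552, and within that window 65 bases in replicate 1 and 6 in replicate 2 were listed with an FDR below 0.05, 0 of them below 0.001. A further peak 1.5 kb into the gene (chr9:124103332-124103578) was in replicate 3 alone, with 0.889. No library had both, and no recurrent region of the locus had the start of Ccr2 as its nearest protein-coding start.

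Ccr1 binds Ccl3 and Ccl5 and is known mostly from myeloid cells. It had no peak and 0 listed bases within 1 kb of its start in any library. Its locus held 2 recurrent regions, both more than 17 kb upstream and nearest to Ccr1l1, a Ccr1-like gene. The one with a peak in all 4 libraries (chr9:123986201-123986480) had a signal of 0.670, 0.725, 1.13 and 0.461, the lowest strongest region of the 7 loci.

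Over all 7 loci, 40 of 73 regions were recurrent, against 46.8% of all regions. Of these 40, 32 had a peak in all 4 libraries and 30 were distal. Every member had at least 1 recurrent distal region in its locus, against 59.2% of all protein-coding genes, and the median number was 4 in the members, 2 in the 17 other chemokine receptor genes and 1 in all genes. With the shorter RefSeq body of Cx3cr1 the members' median was 2, that of the other receptors. Locus length and neighbours enter that number. Per 100 kb of locus the distal regions numbered 9.24 at Cxcr4, 8.12 at Ccr2, 6.57 at Ccr7 and 5.04 at Cx3cr1 with its GENCODE body. They numbered 3.62 at Cxcr6, 3.54 at Ccr1 and 1.90 at Cxcr3, and the value over all genes was 1.66. That density was not computed for the 17 other receptors, whose loci held between 0 distal regions at Cxcr2 and 14 at Cxcr5. It therefore does not set the members apart from other chemokine receptor genes. Of the 30 distal regions, 14 were nearest to a member's own start, 5 at Cxcr4, 4 at Ccr7, 2 each at Cx3cr1 and Cxcr6, 1 at Cxcr3 and 0 at Ccr1 and Ccr2.

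Footprints were found in at least 3 libraries at 26 of the 30 distal regions, against 81.7% of recurrent distal regions, and at 8 of the 10 promoter regions, against 84.1% of recurrent promoter regions. Both shares lay near those of all regions. Of the 12952 bases in the 40 regions, 82.2%, 85.5%, 97.9% and 75.3% were listed with an FDR below 0.05 in replicates 1 to 4. Replicate 3 was highest and replicate 4 lowest, in the order of their numbers of peaks.

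Single-library regions were mostly those of replicate 3. Of 24 regions with a peak in 1 library, 16 were in replicate 3, 6 in replicate 2 and 2 in replicate 1, and over all regions replicate 3 held 69.0% of such regions. The counts over all regions were 3006, 4275, 22363 and 2754 in replicates 1 to 4. Of the 6 in replicate 2, 5 lay in the Ccr7 locus. The summed signal of all regions of the Ccr7 locus was 4.59, 14.6, 13.8 and 7.17 in replicates 1 to 4, so that replicate 2 led there, while the sum at Cxcr4 was 17.2, 21.6, 30.7 and 21.7 with replicate 3 ahead.

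**Figure D4:**
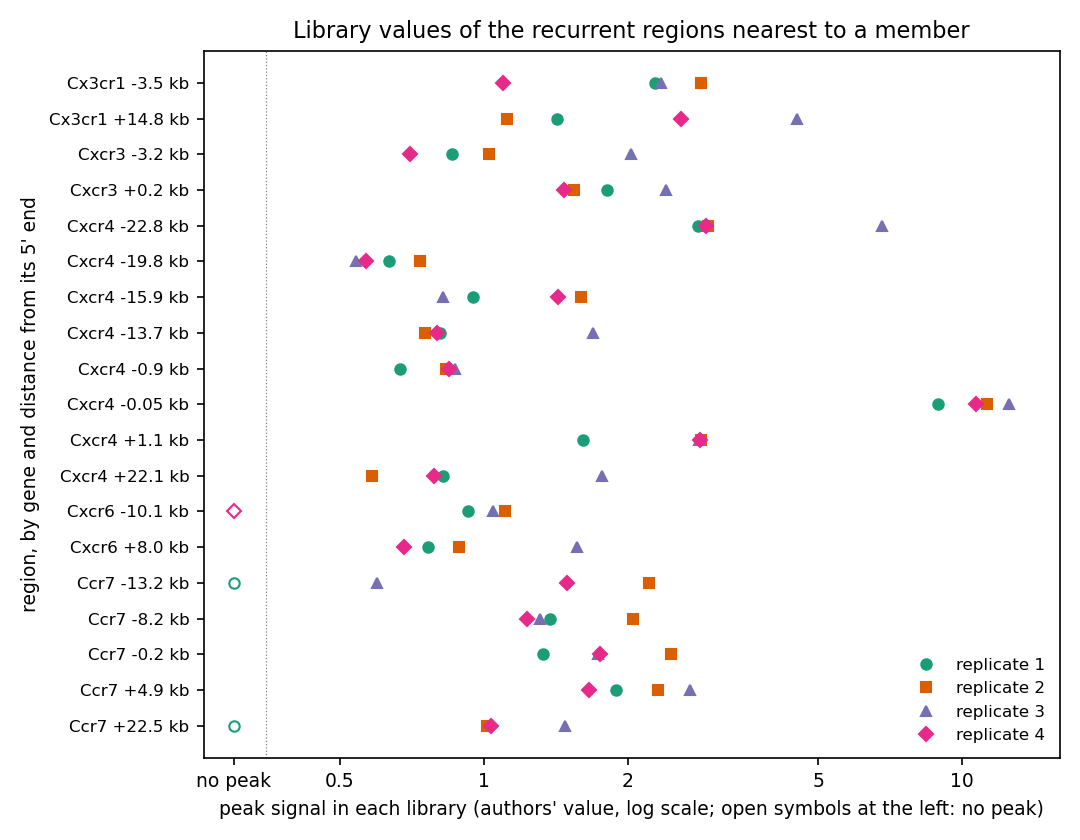
Peak signal of each library (horizontal axis, authors' value, log scale; open symbols at the left have no peak) at the 19 recurrent regions nearest to the start of a member, by gene and distance from its 5' end. Replicate 3 is farthest right at 11 of the 19 regions, and replicate 2 at the other 8.

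Of the 17 other conventional and atypical chemokine receptor genes, 2 had a recurrent promoter region, Ccrl2 among them, against 50.3% of all genes, and 14 had no promoter peak in any library, against 43.4% of all genes. Ccrl2, an atypical receptor that presents chemerin, had a promoter signal of 1.35, 1.46, 4.86 and 1.98, with replicate 3 far above the rest. Its mean of 2.41 ± 1.65 overlapped Cxcr3 and Ccr7 in range, and all 4 of its libraries stood below Cxcr4, whose closest match it was at a mean absolute log2 difference of 2.31. Cxcr5, the receptor of B cell follicles, was open at another start than its 5' end, and 3 of the 17 genes were open when all starts were counted.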

How the data were processed

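DNase-seq libraries of NK cells were used, 4 in 1 group by the cell type in the labels. Peaks, footprints and FDR values were made by the authors from each library's own filtered alignments to mm10, per the deposited readmes, so no libraries were pooled. Neither aligner nor callers are named: they are not given in the sources used for this work. The deposited peak lists hold a signal per peak in a unit that is not stated. The authors' FDR values, a q-value-like measure, list bases below 0.05, and their footprints carry a constant 0.01 in the p-value column. The read depth is unknown, so no counting interval is given. Peaks, footprints and listed bases per library stand in its place.

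The longer of each library's 2 peak lists was used, with 44092, 47464, 69144 and 36247 peaks in replicates 1 to 4, and the shorter was an alternative. Peaks that touched or overlapped by 1 bp were merged across libraries. Genes and starts came from GENCODE vM21 on GRCm38.p6, and RefSeq starts were added. Regions shared by loci would have been assigned once, and 0 were shared. Printed windows were at most 240 bp of the longest stretch of a region free of exons. Longer stretches were cut to their centre in distal regions and to the end next to the gene's start in promoter regions. Matches were sought on both strands with 19 sets of letters and 3 added later, against windows of the same length at the centre of all recurrent regions. Those windows were not trimmed of exons, placed by a gene's start or matched for CpG. The promoter shares therefore compare unlike positions and sequences. Not every match found is named, and an excess of matches over these shares was not tested. Reads of the CAST alleles were compared with a C57BL/6J reference, and an effect of that on peak calls was not tested. Python 3.11.15, pandas 2.3.3, numpy 2.4.6 and samtools 1.23.1 were used, and the merging and counting steps were tested on simulated data. The members, lists and sets of letters were chosen with earlier results of these data known. Named were every member, the regions at its starts, the 3 recurrent regions of each locus with the highest mean signal, the other receptors with a recurrent promoter, and for members with a promoter peak in at least 3 libraries the receptor with the most similar promoter signal. Other regions were named after their values were seen. Results at some neighbouring or listed genes are not reported here.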

Additional observations from a re-analysis of the deposited data

Results flagged for a closer look

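Of 33 sets of 4 library values examined, 5 had 1 library far from the other 3. Chance gives about 1 in 20 for independent, normally distributed values. These sets share the same 4 libraries and can hold a 0 for an absent peak, so an excess over chance cannot be read from the count. The intronic Cxcr4 region 1.1 kb from the start was low in replicate 1, at 1.61. The Cxcr4 regions 13.7 kb and 22.8 kb upstream were high in replicate 3, at 1.69 and 6.79. The region 10.1 kb upstream of Cxcr6 had no peak in replicate 4, a value of 0. The summed promoter signal of the NK cell markers was high in replicate 3, at 65.3. Replicate 3 was also the library with the most peaks, 69144, and the part of that in these values was not tested.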

How the results depend on the processing

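When each library was left out in turn, recurrent meant a peak in 2 of 3, and a footprint was likewise required in 2 of 3. This gave 3 to 3 members with a recurrent promoter, 3 to 3 at any start and 30 to 36 distal regions. Regions with footprints numbered 35 to 41, against 34 with footprints in at least 3 of 4 libraries, and other receptors 2 to 2. A region in 3 of 4 libraries stays in 2 of any 3, so these counts could rise but hardly fall. The distal count was 59 with a peak in at least 1 library, 18 with a 10 kb flank and 11 with the gene body alone, against 30. With at least 1 library, 5 members were open at a start, against 3. Bases with an FDR below 0.001 averaged 8208 per library, against 11038 below 0.05. These settings count fewer or more regions by construction. Of 48 counts of genes or regions 44 lay within 1.5 times the reported one, among them all those that left out a library. Of 84 signal values 83 moved by less than 1 SD. Most of the 84 left out 1 library, which by construction can hardly move a mean by 1 SD, so that share says little of stability. The strongest Ccr7 region moved, averaging 1.67 with the shorter peak list, where replicate 1 has no peak at it, against 2.14. With the RefSeq body of Cx3cr1, chosen after seeing the data, 21 distal regions were counted. No paired analysis was possible because the libraries form a single group. The unknown read depth limits what can be said of absent peaks: a start without a peak was not detectably open at this depth.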
